A study of Mus musculus with 8 samples.

Results

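The genes described here encode the IL-10 receptor and the kinases and transcription factors that carry cytokine signals from it and from related receptors. They are the receptor chains Il10ra and Il10rb, the Janus kinases (JAKs) Jak1, Jak2 and Tyk2, and the signal transducers and activators of transcription (STATs) Stat3, Stat5a, Stat5b and Stat6. They were chosen by gene symbol, with earlier results of these data known. All 9 were found among the 11415 genes of the deposited table. Their transcripts were followed in mouse bone marrow-derived macrophages, cells grown from marrow precursors in M-CSF conditioned medium, in 4 groups of 2 libraries. The group with IL-10 throughout received LPS, the bacterial lipopolysaccharide sensed by Toll-like receptor signalling, and IL-10, each at 1 ng/mL for 195 min. The late IL-10 group received LPS for 195 min and IL-10 over the final 30 min, at a dose the labels do not restate. The LPS group received LPS alone at 1 ng/mL for 195 min, and the untreated group received neither. Every group, untreated cells included, had the genotype IL10-/-RAG2-/- on the 129S6/SvEvTac strain, so no comparison tested the genotype. Per the labels, 2 independent macrophage pools were used.

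IL-10 is a secreted cytokine that restrains inflammatory gene expression in macrophages. It binds the ligand-binding chain IL-10R1, the product of Il10ra, which pairs with IL-10R2, the product of Il10rb, a chain shared with the IL-22 and interferon lambda receptors. JAK1 is bound to the first chain and TYK2 to the second, and their activation leads to phosphorylation of STAT3, which dimerises, enters the nucleus and binds target genes. JAK2 serves other receptors, among them those for GM-CSF and interferon gamma, STAT5A and STAT5B act downstream of GM-CSF and IL-3, and STAT6 acts downstream of IL-4 and IL-13. These proteins are switched on by phosphorylation, which RNA levels do not show.

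For each gene the table gives a signal for mature mRNA and a signal for pre-mRNA, the unspliced precursor. Each deposited value was taken as the mean of 2 libraries' read counts divided by a size factor. The reads of both libraries were inferred from it. With the constants chosen for each column, 100% of values had exactly 1 solution. Values below are normalized reads per library. The columns do not number the replicates, so letters were given within each group and measure, A to the library with the larger size factor and B to its partner. Per library the mRNA reads over the table came to 21412968 to 53172133, and the pre-mRNA reads to 8661271 to 31508394. Changes are differences of log2(normalized reads + 1) with the standard error (SE) of a limma fit across all genes, which understates changes of low genes. "Rose" and "fell" are used where the Benjamini-Hochberg adjusted p over all genes was under 0.05. Whether the libraries of 2 groups overlap is given as a description, not as a test. For IL-10 throughout against late IL-10 in pre-mRNA, 53.0% of all genes had no overlap. That share was not worked out for the other comparisons. The p-values reflect how far the libraries of a group differ among the 8. That spread may be technical or a difference between the 2 macrophage pools, for which the fit has no term.

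The labelled cell type was checked against marker genes. All 7 macrophage markers were in the table, among them Csf1r, the M-CSF receptor, and Adgre1, which encodes F4/80. Their summed mRNA came to 439799 to 456508 normalized reads per library with IL-10 throughout, 554123 to 572367 with late IL-10, 550727 to 568748 with LPS and 464180 to 492406 untreated. Markers of other cells were at far lower sums, and several lists moved with treatment. The dendritic cell list (4 of 5 in the table, Flt3 not among them) stood at 2991 to 4548, 8908 to 15876, 9483 to 17789 and 1343 to 2882 in the same order of groups. The neutrophil list (6 of 8, without Ly6g and Elane) stood at 792 to 908, 1069 to 1412, 1065 to 1275 and 50.9 to 293. The T or NK cell list (2 of 5, without Cd3d, Cd3e and Ncr1) stood at 395 to 757, 507 to 938, 431 to 735 and 3324 to 5494, so it was highest in untreated cells. The stromal or endothelial list (4 of 6, without Col1a1 and Col1a2) stood at 1338 to 1441, 3659 to 4270, 3743 to 4359 and 1346 to 2424. The single mast cell marker in the table (of 3) was at 44.5 or less, and none of the 3 B cell markers were in the table. Every gene of the table has at least 11 reads in each LPS mRNA library. A marker outside the table may therefore still be expressed in the other groups. The part of other cells in the results below was not tested, and in bulk RNA fewer cells of a type and less RNA per cell cannot be told apart.

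The position of the 9 genes bears on how their reads can be read. In the GENCODE M21 annotation of mm10, Stat5b (chromosome 11, 100780731 to 100850724, minus strand), Stat5a (100859351 to 100885169, plus strand) and Stat3 (100885098 to 100939540, minus strand) lie side by side. In coordinates, 8.63 kb separate Stat5b from Stat5a. As they lie on opposite strands, it is their start sides that face each other. The ends of Stat5a and Stat3 overlap by 72 exonic bases on opposite strands. Il10ra lies on chromosome 9 (45253837 to 45269149), as does Tyk2 (21104068 to 21131243), Il10rb on 16 (91406164 to 91425834), Jak1 on 4 (101152367 to 101265282), Jak2 on 19 (29251828 to 29313080) and Stat6 on 10 (127642986 to 127660957). The span of an antisense gene, 1700084C06Rik, introns included, takes in 6475 exonic bases of Tyk2. How many of these lie in exons of the antisense gene was not worked out. The libraries were directional per the labels, but whether reads were counted by strand is not given in the sources used here. Reads of Tyk2 and of this antisense gene may therefore be mixed. On the same strand, the span of Gm21970, introns included, takes in 1833 exonic bases of Il10rb. Of the 50-base words of the Il10rb transcript, 29% also occur in a Gm21970 transcript.

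Stat5a and Stat5b, which encode near-identical STAT proteins, also share sequence: 15.8% of the 50-base words of the Stat5a transcript occur in Stat5b, and 11.8% of those of Stat5b occur in Stat5a. The longest identical stretch is 324 coding bases, coding bases 571 to 894 of both genes, of 2379 coding bases in Stat5a and 2358 in Stat5b. Coding bases 511 to 630, from the mm10 genome and GENCODE M21, are shown because they differ at a single base, in capitals, and only a read that covers it separates the genes there:
Stat5a: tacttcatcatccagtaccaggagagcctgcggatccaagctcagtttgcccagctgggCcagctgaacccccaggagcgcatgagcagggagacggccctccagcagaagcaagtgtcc
Stat5b: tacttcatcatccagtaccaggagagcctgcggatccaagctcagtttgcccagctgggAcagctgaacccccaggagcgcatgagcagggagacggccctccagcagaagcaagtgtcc
Reads wholly inside the identical stretch could have come from either gene, and how the authors counted such reads is not given in the sources used here.

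The RefSeq promoters (GRCm38.p6) of the members that moved most are shown for their sequence next to the start site, 250 bases before it. The first is that of Stat3 (chr11:100939541-100939790, minus strand), the second that of Jak2 (chr19:29251553-29251802, plus strand) and the third that of Stat5a (chr11:100860234-100860483, plus strand), with a kappa-B match in capitals:
Stat3: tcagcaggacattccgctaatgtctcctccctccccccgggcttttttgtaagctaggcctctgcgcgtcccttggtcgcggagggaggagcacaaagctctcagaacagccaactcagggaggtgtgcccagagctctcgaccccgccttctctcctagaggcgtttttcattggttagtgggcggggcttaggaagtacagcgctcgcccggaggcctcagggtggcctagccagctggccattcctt
Jak2: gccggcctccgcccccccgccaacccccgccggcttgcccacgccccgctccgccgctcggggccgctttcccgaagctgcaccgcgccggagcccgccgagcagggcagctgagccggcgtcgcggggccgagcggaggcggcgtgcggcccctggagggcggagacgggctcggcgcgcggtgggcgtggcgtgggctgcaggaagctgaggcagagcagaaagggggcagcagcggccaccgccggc
Stat5a: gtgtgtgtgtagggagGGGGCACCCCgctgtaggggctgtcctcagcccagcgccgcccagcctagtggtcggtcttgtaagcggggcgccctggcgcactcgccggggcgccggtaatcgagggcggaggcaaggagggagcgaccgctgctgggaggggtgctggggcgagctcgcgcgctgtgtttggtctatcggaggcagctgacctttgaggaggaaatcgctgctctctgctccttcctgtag
The letters of 3 motifs were searched on both strands: the STAT palindrome TTCNNNGAA, the interferon response element GAAANNGAAA and the kappa-B motif. They occur in 7.02%, 2.98% and 3.90% of 32841 RefSeq promoter windows of the same length. Among 9 such windows of the 7 matched members, the only match was the kappa-B one shown, 234 bases before the Stat5a start. Stat5a has another RefSeq start, with no match in its window (chr11:100859406-100859655). A match is letters in a window, not evidence of binding.

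The order of the 9 genes by level differed between treatments. Levels of different genes were compared as normalized mRNA reads per kb of annotated exons (mean ± SD, n = 2 libraries). The exons of all annotated transcripts of a gene were joined, which came to 3.808 kb for Il10rb, 7.133 for Stat5a and 9.527 for Stat3. Their longest protein-coding transcripts have 1850, 3888 and 6042 bases, while Il10ra has 3498 bases by either measure. The order of the genes depends on this choice of length, and no other length was tried. With LPS, Jak2 stood first at 13113 ± 6566 and Il10ra second at 4524 ± 1056. In untreated cells Jak2 was at 398 ± 62.6, with only Stat5b and Stat5a below it, and the receptor chains led, with Il10ra at 2778 ± 474 and Il10rb at 2464 ± 204. The next in untreated cells were Stat6 (2067 ± 245), Jak1 (1323 ± 25.0), Stat3 (530 ± 51.7) and Tyk2 (525 ± 89.6), and the last were Stat5b (386 ± 17.5) and Stat5a (139 ± 4.94). The libraries of neighbours in that order overlapped for Il10ra and Il10rb, for Stat3 and Tyk2, and for Jak2 and Stat5b.

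With LPS the places after them went to Il10rb (2466 ± 660), Jak1 (1990 ± 561), Stat6 (1795 ± 175), Stat5a (1711 ± 1138) and Tyk2 (1111 ± 40.7), and the libraries of each of these neighbours overlapped. Stat3 (742 ± 135) and Stat5b (514 ± 185) came last. With IL-10 throughout, Stat3 was at 2455 ± 72.4, next after Jak2 (11468 ± 6644), Jak1 (3341 ± 1140) and Il10ra (2578 ± 261). With late IL-10 it was at 956 ± 177 and, as with LPS alone, only Stat5b stood lower. The libraries of Stat3 overlapped those of Il10ra, Il10rb and Stat5a with IL-10 throughout, and those of Tyk2 and Stat5a with late IL-10.

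**Figure D1:**
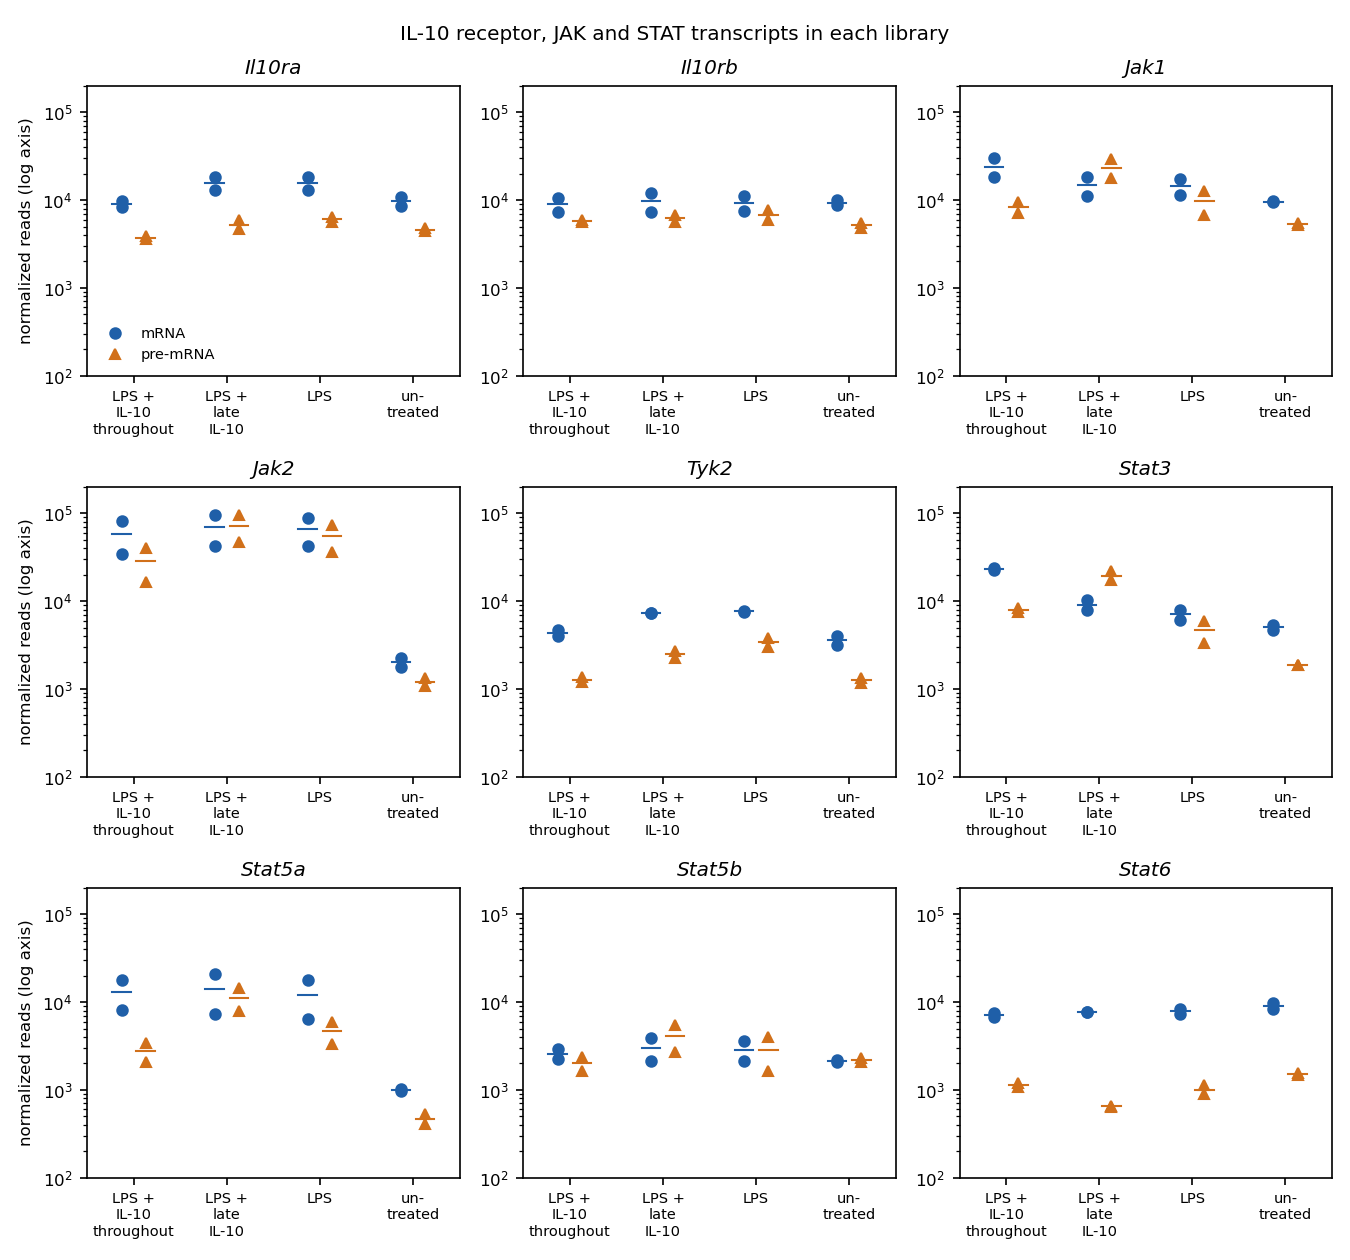
Normalized reads (log axis) of the 9 genes in every library, mRNA and pre-mRNA, with IL-10 throughout, late IL-10, LPS and untreated from left to right. Points are single libraries and bars the mean of 2. Jak2 and Stat5a stand far lower in untreated cells than in the other groups, and Stat3 mRNA stands highest with IL-10 throughout.

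The 2 libraries of a group stood apart for several of these genes. In mRNA the larger library value was up to 2.39 times the smaller with IL-10 throughout, 2.80 times with late IL-10, 2.78 times with LPS and 1.27 times in untreated cells. In pre-mRNA the largest ratios were 2.43, 2.00, 2.43 and 1.30 in the same order. In that order the median ratio of the 9 genes was 1.32, 1.63, 1.47 and 1.15 in mRNA. Over all genes with a mean of at least 100 normalized reads it was 1.29, 1.30, 1.28 and 1.26. In pre-mRNA the medians were 1.13, 1.27, 1.79 and 1.10 for the 9 genes, against 1.25, 1.29, 1.38 and 1.25. The 90th percentile over all genes was 1.85 to 2.03 in mRNA and 1.76 to 2.31 in pre-mRNA. Library A held the higher mRNA value for 7 of the 9 genes with IL-10 throughout, 9 with late IL-10, 1 with LPS and 4 in untreated cells. Jak2 and Stat5a had the widest gaps in mRNA in the LPS-treated groups. In pre-mRNA library A held the higher value for 7 of the 9 genes with IL-10 throughout, 8 with late IL-10, 8 with LPS and 3 in untreated cells. The letters do not tie libraries of different groups to each other, so no fit pairs them.

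What 195 min of LPS did to these transcripts was asked first, against untreated cells. Of the 9 genes, 3 rose in mRNA and none fell, against 35.7% of all genes called (19.2% higher, 16.5% lower). In pre-mRNA 4 rose and 1 fell, against 44.0% of all genes called (22.3% higher, 21.7% lower). The kinases Jak2 and Tyk2 and the transcription factor Stat5a rose in both measures. When libraries were scaled to total reads instead, the count was 2 rising and 2 falling in mRNA and 2 rising and 1 falling in pre-mRNA. That scaling moved the median change of all genes to -0.74 in mRNA and -0.91 in pre-mRNA, against 0.0075 and 0.0010 with the deposited scaling. The median change of the 9 genes was 0.56 in mRNA and 0.79 in pre-mRNA.

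Jak2 had the largest increase. Its mRNA was 42605 and 89315 normalized reads with LPS, against 2225 and 1780 untreated. Its pre-mRNA was 73457 and 36136 with LPS, against 1332 and 1084 untreated. Every LPS library was far above both untreated ones in both measures. The fold was 31.0 in mRNA (log2 change 4.95 ± 0.58, limma adjusted p = 0.00118) and 42.8 in pre-mRNA (5.42 ± 0.59, adjusted p = 0.00043).

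Tyk2, the kinase that binds IL-10R2, had 7428 and 7823 mRNA reads with LPS, against 3168 and 4038 untreated. Its pre-mRNA had 3846 and 2987 with LPS, against 1179 and 1336 untreated. The LPS libraries lay above the untreated ones throughout and were close to each other in mRNA. Tyk2 rose 2.13-fold in mRNA (1.09 ± 0.20, adjusted p = 0.00633) and 2.70-fold in pre-mRNA (1.43 ± 0.22, adjusted p = 0.00201). Scaled to total reads, the changes were 0.34 (adjusted p = 0.253) and 0.51 (adjusted p = 0.0800). Jak1, the kinase that binds IL-10R1, had 11518 and 17252 mRNA reads with LPS, against 9432 and 9688 untreated. The groups did not overlap, but the change of 0.56 ± 0.35 did not pass (95% interval -0.28 to 1.40, adjusted p = 0.256), and it was -0.19 when scaled to total reads. Its pre-mRNA had 12790 and 6701 with LPS, against 5545 and 5177 untreated, a change of 0.79 ± 0.41 (-0.17 to 1.74, adjusted p = 0.154). That change passed without LPS library B (1.26, adjusted p = 0.0446).

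Among the STATs, Stat5a stood out. Its mRNA was 6463 and 17941 with LPS, against 1017 and 967 untreated, and its pre-mRNA was 5968 and 3340, against 405 and 525. The lowest LPS library was several times the highest untreated one in both measures. The fold was 10.9 in mRNA (3.44 ± 0.66, adjusted p = 0.00801) and 9.67 in pre-mRNA (3.27 ± 0.42, adjusted p = 0.00084). The mRNA call was lost without untreated library B (3.40, adjusted p = 0.0504). Its close relative Stat5b had 2126 and 3572 mRNA reads with LPS, against 2068 and 2206 untreated, and 4026 and 1660 pre-mRNA reads, against 2309 and 2104. The groups overlapped in both measures, and the changes were 0.37 ± 0.36 (-0.49 to 1.22, adjusted p = 0.462) and 0.23 ± 0.48 (-0.88 to 1.34, adjusted p = 0.720), both below 0 when scaled to total reads (-0.38 and -0.69).

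Stat3, the factor that carries the IL-10 signal, had 6163 and 7980 mRNA reads with LPS, against 4706 and 5402 untreated. Both LPS libraries were higher, but the change of 0.48 ± 0.22 did not pass (-0.048 to 1.00, adjusted p = 0.137) and was -0.27 when scaled to total reads. Stat3 pre-mRNA was 5969 and 3339 with LPS, against 1869 and 1891 untreated, and rose 2.37-fold (1.25 ± 0.32, adjusted p = 0.0169). That call was lost without LPS library A (0.83, adjusted p = 0.0759), without untreated library A (adjusted p = 0.0758) or B (adjusted p = 0.0754), and when scaled to total reads (0.33, adjusted p = 0.197). Stat6 had 8447 and 7357 mRNA reads with LPS, against 8335 and 9860 untreated, which overlap (-0.20 ± 0.18, adjusted p = 0.426), and fell when scaled to total reads (-0.95, adjusted p = 0.0155). Its pre-mRNA was 892 and 1126 with LPS, against 1487 and 1545 untreated, and fell 1.51-fold (-0.60 ± 0.20, adjusted p = 0.0446), a call that held without LPS library B (adjusted p = 0.0381) and was lost on leaving out any other library (adjusted p = 0.0722 to 0.217).

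The receptor chains did not pass in either measure. Il10ra mRNA was 13212 and 18438 with LPS, against 10889 and 8545 untreated, and its pre-mRNA was 6463 and 5601, against 4427 and 4785. All LPS libraries were the higher ones, with changes of 0.69 ± 0.27 (0.060 to 1.33, adjusted p = 0.0834) and 0.39 ± 0.24 (-0.17 to 0.94, adjusted p = 0.220), which turned to -0.054 and -0.53 when scaled to total reads. Il10rb mRNA was 7610 and 11167 with LPS, against 9931 and 8835 untreated. The groups overlapped, with a change of -0.023 ± 0.32 (-0.79 to 0.74), and Il10rb mRNA fell when scaled to total reads (-0.77, adjusted p = 0.0262). Il10rb pre-mRNA was 7788 and 5867 with LPS, against 4876 and 5476 untreated. The groups did not overlap, with a difference of 0.39 ± 0.26 (-0.22 to 0.99) that was -0.53 when scaled to total reads.

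**Figure D2:**
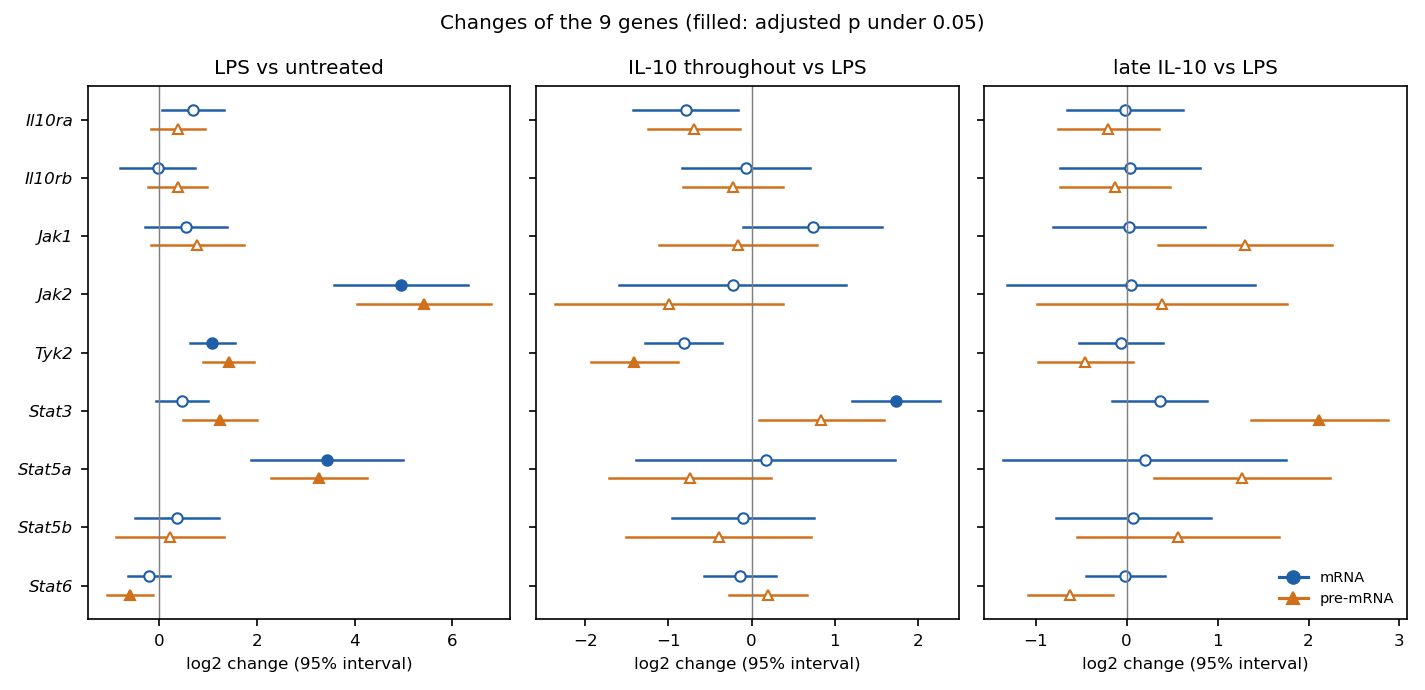
Log2 changes of the 9 genes with 95% limma intervals, mRNA (circles) and pre-mRNA (triangles), for LPS against untreated, IL-10 throughout against LPS and late IL-10 against LPS. Filled points passed an adjusted p of 0.05: Jak2, Tyk2 and Stat5a in both measures and Stat3 (1.25) and Stat6 (-0.60) in pre-mRNA with LPS, then Stat3 in mRNA (1.74) and Tyk2 in pre-mRNA (-1.41) with IL-10 throughout, and Stat3 in pre-mRNA (2.12) with late IL-10.

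IL-10 throughout was set against LPS alone to ask what IL-10 changed when present from the start. Stat3 mRNA rose, and Tyk2 pre-mRNA fell. In mRNA 1 of 9 genes was called, against 2.24% of all genes (1.19% higher, 1.05% lower). In pre-mRNA 1 of 9 was called, against 6.70% of all genes (2.44% higher, 4.26% lower). The median change of the 9 genes was -0.10 in mRNA and -0.40 in pre-mRNA, against -0.019 and 0.0015 over all genes. Scaled to total reads, Stat3 also rose in pre-mRNA, while the Stat3 mRNA and Tyk2 pre-mRNA calls stood. The comparison shares its LPS libraries with the one above, so a high or low LPS library enters both with opposite sign.

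Stat3 mRNA was 23882 and 22906 normalized reads with IL-10 throughout, against 6163 and 7980 with LPS. The IL-10 libraries were nearly equal and both lay far above the LPS ones. The fold was 3.33 (1.74 ± 0.22, 95% interval 1.21 to 2.26, adjusted p = 0.0126). The change lay between 1.55 and 1.92 on leaving out any 1 library. The call was lost without LPS library A (adjusted p = 0.0877) or B (0.0618) and without IL-10 throughout library A (0.0952) or B (0.0896). Stat3 pre-mRNA was 8405 and 7599 with IL-10 throughout, against 5969 and 3339 with LPS. Both IL-10 libraries were the higher ones, and the change of 0.84 ± 0.32 did not pass (0.088 to 1.59, adjusted p = 0.172), though it did when scaled to total reads (1.30, adjusted p = 0.0101).

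Tyk2 moved the other way. Its pre-mRNA was 1355 and 1198 with IL-10 throughout, against 3846 and 2987 with LPS, and stood at 1179 and 1336 in untreated cells. The IL-10 libraries lay close to the untreated ones and well below the LPS ones, though no test of IL-10 throughout against untreated cells was made. Tyk2 pre-mRNA fell 2.66-fold (-1.41 ± 0.22, -1.93 to -0.89, adjusted p = 0.0157). The call was lost without LPS library A (-1.23, adjusted p = 0.0820), IL-10 throughout library A (-1.50, adjusted p = 0.0700) or B (-1.32, adjusted p = 0.118). Tyk2 mRNA was 3954 and 4738 with IL-10 throughout, against 7428 and 7823 with LPS. The groups did not overlap, but the change of -0.82 ± 0.20 did not pass (-1.28 to -0.35, adjusted p = 0.101).

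Il10ra, the chain that binds IL-10, was lower in every library with IL-10 throughout. Its mRNA was 9663 and 8374 with IL-10 throughout, against 13212 and 18438 with LPS, and its pre-mRNA was 3561 and 3876, against 6463 and 5601. The groups did not overlap in either measure. The changes of -0.79 ± 0.27 (-1.43 to -0.16, adjusted p = 0.227) and -0.70 ± 0.24 (-1.25 to -0.14, adjusted p = 0.130) did not pass. Il10rb had 10532 and 7321 mRNA reads with IL-10 throughout, against 7610 and 11167 with LPS. These overlap, with a change of -0.070 ± 0.32 (-0.84 to 0.70), which was 0.19 when scaled to total reads.

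Of the other kinases, Jak1 mRNA was 29972 and 18319 with IL-10 throughout, against 11518 and 17252 with LPS. Both IL-10 libraries were the higher ones, and the change of 0.73 ± 0.35 did not pass (-0.10 to 1.57, adjusted p = 0.410). Jak1 pre-mRNA overlapped between the groups (-0.16 ± 0.41, -1.12 to 0.79). Jak2 mRNA was 81317 and 34054 with IL-10 throughout, against 42605 and 89315 with LPS, a change of -0.23 ± 0.58 with an interval of -1.60 to 1.14. The 2 libraries of each group differed by more than the groups did, so a change of up to about that interval could not be seen. Stat5a (0.17 ± 0.66, -1.39 to 1.73), Stat5b (-0.10 ± 0.36, -0.95 to 0.75) and Stat6 (-0.14 ± 0.18, -0.57 to 0.29) did not pass in mRNA, nor in pre-mRNA, where the changes were -0.74 ± 0.42, -0.40 ± 0.48 and 0.20 ± 0.20.

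Late IL-10 was set against LPS alone to ask what the final 30 min of IL-10 changed. Stat3 pre-mRNA rose, and no mature transcript of the 9 passed. In mRNA 0 of 9 genes were called, against 0% of all genes. At an unadjusted p under 0.05 none of the 9 passed, against 92 genes higher and 15 lower in the whole table. The limma-voom fit also called 0 genes, and the fit scaled to total reads called 3, none of them among the 9. In pre-mRNA 1 of 9 was called, against 1.04% of all genes (0.979% higher, 0.0629% lower). The median change of the 9 genes was 0.039 in mRNA and 0.39 in pre-mRNA, against -0.0067 and -0.048 over all genes.

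Stat3 pre-mRNA was 21832 and 17248 normalized reads with late IL-10, against 5969 and 3339 with LPS. Both late IL-10 libraries were well over the LPS ones. The fold was 4.35 (2.12 ± 0.32, 1.37 to 2.87, adjusted p = 0.0282). The change stayed between 1.70 and 2.54 on leaving out any 1 library. The call held without LPS library A (adjusted p = 0.0183) and was lost on leaving out any other library (adjusted p = 0.0736 to 0.195), and also with no filter on low values (adjusted p = 0.0759). Stat3 mRNA was 10299 and 7918 with late IL-10, against 6163 and 7980 with LPS, which overlap (0.36 ± 0.22, -0.16 to 0.89).

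No other precursor passed. For some the libraries did not overlap, but the share of all genes without overlap was not worked out for this comparison. Jak1 pre-mRNA was 29087 and 17857 with late IL-10, against 12790 and 6701 with LPS, and both late IL-10 libraries were the higher ones. Its change of 1.30 ± 0.41 had an adjusted p of 0.339, and passed when scaled to total reads (1.33, adjusted p = 0.0322). Stat5a pre-mRNA was 14461 and 8015 with late IL-10, against 5968 and 3340 with LPS (1.27 ± 0.42, adjusted p = 0.371), again without overlap. Stat6 pre-mRNA was 645 and 659 with late IL-10, against 892 and 1126 with LPS, both late IL-10 libraries being lower (-0.62 ± 0.20, adjusted p = 0.360). Tyk2 pre-mRNA was 2706 and 2258 with late IL-10, also below the 3846 and 2987 with LPS (-0.46 ± 0.22, adjusted p = 0.801).

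Pre-mRNA of the remaining genes overlapped. Jak2 had 95191 and 47641 pre-mRNA reads with late IL-10, against 73457 and 36136 with LPS (0.39 ± 0.59, -0.99 to 1.76). Its mRNA was 95820 and 42388 with late IL-10, against 42605 and 89315 with LPS. The Jak2 difference was 0.047 in mRNA, with an interval of -1.32 to 1.41. The mRNA changes of the 9 genes lay between -0.060 for Tyk2 and 0.36 for Stat3.

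IL-10 throughout was then compared directly with late IL-10. These groups differ in the length of IL-10 treatment, in its start relative to LPS and possibly in dose. The comparison cannot tell these apart. In mRNA 1 of 9 genes was called, against 1.09% of all genes (0.517% higher, 0.569% lower). That gene was Stat3, with 23882 and 22906 reads with IL-10 throughout, against 10299 and 7918 with late IL-10. Both libraries of IL-10 throughout were more than the late IL-10 ones, and the fold was 2.59 (1.37 ± 0.22, 0.85 to 1.90, adjusted p = 0.0433). The call was lost on leaving out any of the 8 libraries (adjusted p = 0.0737 to 0.220), with a change between 1.18 and 1.56.

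In pre-mRNA 0 of 9 genes were called in that comparison, against 2.96% of all genes (0.755% higher, 2.20% lower). Without adjustment, 1 of the 9 passed p under 0.05 upwards and 5 downwards, against 972 and 1435 of all 11131 genes. Limma-voom called 0 of the 9. Stat3 pre-mRNA was 8405 and 7599 with IL-10 throughout, against 21832 and 17248 with late IL-10. It lay lower in both libraries (-1.28 ± 0.32, adjusted p = 0.0730), the opposite order to its mRNA. It passed without LPS library A (adjusted p = 0.0372) or B (0.0373). Stat5a pre-mRNA was 3456 and 2059 with IL-10 throughout, against 14461 and 8015 with late IL-10 (-2.01 ± 0.42, -2.98 to -1.04, adjusted p = 0.0505). Stat5a was under the threshold with a pseudocount of 4 (adjusted p = 0.0479), TMM scaling (0.0483) and scaling to total reads (0.0314), and without LPS library A (0.0350) or B (0.0331).

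Jak1 pre-mRNA was 9632 and 7104 with IL-10 throughout, against 29087 and 17857 with late IL-10 (-1.46 ± 0.41, adjusted p = 0.0959). Tyk2 pre-mRNA was 1355 and 1198, against 2706 and 2258 (-0.96 ± 0.22, adjusted p = 0.0630). Neither gene's groups overlapped, and both lay lower with IL-10 throughout. Jak2 pre-mRNA was 40420 and 16602, against 95191 and 47641 (-1.38 ± 0.59, adjusted p = 0.229). Stat6 alone among the 9 had both libraries of IL-10 throughout above both late IL-10 ones in pre-mRNA, at 1091 and 1208 with IL-10 throughout, against 645 and 659 (0.82 ± 0.20, adjusted p = 0.0703). Counting both directions, the pre-mRNA libraries did not overlap for 8 of 9 genes, against 53.0% of all genes.

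Precursor and mature changes of each gene were then set against each other in a single limma fit of both measures, which ignores that both were read from the same RNA samples. Of the 9 genes, 1 passed, for IL-10 throughout against late IL-10, where 0.494% of all genes passed. Stat3 had a pre-mRNA change lower than its mRNA change by -2.65 ± 0.39 (adjusted p = 0.0129). The difference lay between -2.84 and -2.46 on leaving out any 1 of the 16 libraries. It passed in 10 of those 16 fits and was lost without mRNA IL-10 throughout A or B, mRNA late IL-10 B, pre-mRNA IL-10 throughout A or B, or pre-mRNA late IL-10 A (highest adjusted p = 0.0867).

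For late IL-10 against LPS, the Stat3 difference was 1.75 ± 0.39 (adjusted p = 0.224) and passed when scaled to total reads (1.79, adjusted p = 0.0125). In that comparison 0.135% of all genes passed. For IL-10 throughout against LPS it was -0.90 ± 0.39, where 0.0629% of all genes passed and limma called 0 of the 9. Before adjustment Stat3 alone of the 9 was under 0.05. Over all 11131 genes, 250 were under it with a positive difference and 171 with a negative one. Jak1 had a difference of -2.16 ± 0.56 for IL-10 throughout against late IL-10 (adjusted p = 0.165), which passed when scaled to total reads (-2.01, adjusted p = 0.0267). Stat6 had one of 0.94 ± 0.26 in the other direction (adjusted p = 0.194). With LPS against untreated cells none of the 9 passed, against 1.24% of all genes.

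**Figure D3:**
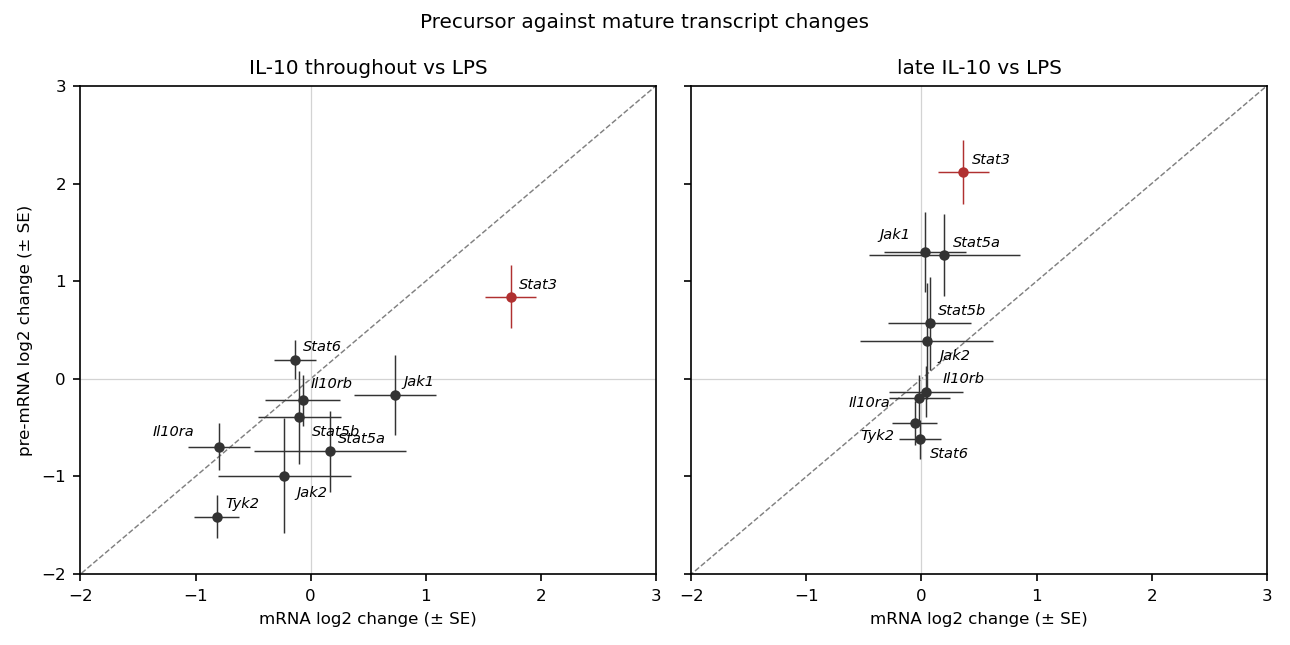
Pre-mRNA log2 change (vertical axis) against mRNA log2 change (horizontal axis) of the 9 genes, with SE bars, for IL-10 throughout against LPS and late IL-10 against LPS, and the dashed line of equal change. Stat3 lies below the line with IL-10 throughout (0.84 in pre-mRNA, 1.74 in mRNA) and above it with late IL-10 (2.12 in pre-mRNA, 0.36 in mRNA).

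The other genes of the pathway were read from lists chosen with earlier results of these data known, so list counts are a description. From the kinase and STAT families the lists hold Jak3, Stat2 and Stat4. Jak3 serves receptors with the common gamma chain, Stat2 acts downstream of interferons and Stat4 acts downstream of IL-12. With LPS against untreated cells 1 of these 3, Stat2, rose in both measures (35.7% and 44.0% of all genes called). Stat2 mRNA was 13746 and 22472 normalized reads with LPS, against 1247 and 1508 untreated. It rose by 3.68 in mRNA (adjusted p = 0.00094) and 4.26 in pre-mRNA (adjusted p = 0.00025). With IL-10 throughout against LPS none of the 3 passed in mRNA. Without adjustment, 1 was higher and 2 were lower at p under 0.05, against 716 and 955 of all 11415 genes. Limma-voom called 0 of the 3.

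In pre-mRNA all 3 passed with IL-10 throughout against LPS, where 6.70% of all genes were called, and limma-voom called Jak3 and Stat2 alone. Stat2 pre-mRNA was 2069 and 936 with IL-10 throughout, against 7700 and 4809 with LPS, and fell by 2.13 (adjusted p = 0.0269). Stat4 was 82.6 and 71.2, against 1088 and 273, and fell by 2.81 (adjusted p = 0.0372). Both genes lay lower in both libraries with IL-10 throughout. Jak3 was 428 and 456 with IL-10 throughout, and late IL-10 gave 571 and 550, against 140 and 159 with LPS. It rose in both comparisons (1.56, adjusted p = 0.0105, and 1.90, adjusted p = 0.00818). The falls of Stat2 and Stat4 were lost without either untreated library, without LPS library A and without IL-10 throughout library B (adjusted p = 0.0547 to 0.195), and that of Stat4 also without IL-10 throughout library A (0.129). Both were also lost with no filter on low values (0.0731 for Stat2 and 0.0978 for Stat4), and Stat4 with limma-voom (0.0698). The first Jak3 rise was lost without LPS library A or either library of IL-10 throughout (0.0595 to 0.0944). The second was lost without either late IL-10 library (0.0873 and 0.0961) and when scaled to total reads (0.0611).

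The list of inhibitors holds 19 genes, SOCS proteins, phosphatases, PIAS proteins and Usp18, all in the table. With LPS against untreated cells 9 rose and 1 fell in mRNA, against 35.7% of all genes called, and 11 rose and 1 fell in pre-mRNA, against 44.0%. The list median was 1.13 in mRNA and 1.08 in pre-mRNA, against 0.0075 and 0.0010 over all genes. Socs3, the feedback inhibitor of gp130 receptors, had 94240 and 87517 mRNA reads with LPS, against 159 and 276 untreated, and rose by 8.76 (adjusted p = 1.2e-05). Cish rose by 9.58 and Socs1 by 7.97, and these 3 were called on leaving out any 1 library.

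With IL-10 throughout against LPS, 1 inhibitor rose and 1 fell in mRNA, against 2.24% of all genes called, and the list median was -0.25, against -0.019 over all genes. Ptpn1, which encodes the phosphatase PTP1B, had 30921 and 38708 mRNA reads with IL-10 throughout, against 7840 and 4830 with LPS, and rose by 2.49 (adjusted p = 0.00931). Its call was lost without LPS library B (2.14, adjusted p = 0.0604), IL-10 throughout library A (2.65, adjusted p = 0.0521) or B (2.33, adjusted p = 0.0739). Socs1 had 1506 and 1722, against 6159 and 7088, and fell by 2.04 (adjusted p = 0.0350), a call kept without either untreated library and lost on leaving out any of the other 6 libraries (adjusted p = 0.0585 to 0.205). Socs3 had 133730 and 146033 with IL-10 throughout, and late IL-10 gave 181971 and 186534, against 94240 and 87517 with LPS. Every IL-10 library of Socs3 was the higher, and neither change passed (0.62 ± 0.28, adjusted p = 0.375, and 1.02 ± 0.28, adjusted p = 1).

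In pre-mRNA 1 inhibitor rose and 2 fell with IL-10 throughout against LPS, where 6.70% of all genes were called. Cish was 400 and 127 with IL-10 throughout, against 3045 and 2582 with LPS, and fell by 3.63 (adjusted p = 0.0126). Its call was lost without LPS library A (-3.51, adjusted p = 0.0681) or IL-10 throughout library B (-2.81, adjusted p = 0.0526), and with no filter on low values (adjusted p = 0.0505). With late IL-10 against LPS, 1 of 19 rose (1.04% of all genes called), Ptpn1, with 31698 and 31892 pre-mRNA reads, against 5550 and 7127 (2.34, adjusted p = 0.0143). It was called in 3 of the 8 fits that left out a library, those without an untreated library or without LPS library B.

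Other receptors that share chains or kinases with the IL-10 receptor were listed as well. Of 9 class II cytokine receptor genes, the family of Il10ra and Il10rb, 5 were in the table. With LPS against untreated cells 3 rose in both measures, against 35.7% of all genes called in mRNA and 44.0% in pre-mRNA. They were Il20rb (3.81 in mRNA, adjusted p = 0.00024) and the interferon receptor chains Ifnar1 (1.35, adjusted p = 0.0412) and Ifnar2 (1.00, adjusted p = 0.0131), whose calls were lost when scaled to total reads (0.60 and 0.25). The mRNA call of Ifnar1 was also lost without either untreated library, LPS library B or either library of IL-10 throughout (adjusted p = 0.0517 to 0.215), and that of Ifnar2 without untreated library A or LPS library B (0.0632 and 0.0921). In pre-mRNA both calls were lost without either untreated library or LPS library A (adjusted p = 0.0836 to 0.168) and when scaled to total reads (0.28 and 0.15). The Ifnar1 pre-mRNA call was also lost without either library of IL-10 throughout (0.0560 and 0.0572) and with no filter (0.0548). With IL-10 throughout against LPS, limma and limma-voom each called 0 of the 5 in mRNA. At an unadjusted p under 0.05, 3 were higher and 0 lower, against 716 and 955 of all 11415 genes. In pre-mRNA none was called or passed unadjusted, against 1053 higher and 1515 lower of all 11131 genes unadjusted.

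Of 27 other JAK-coupled receptor genes, 19 were in the table. With LPS against untreated cells 3 rose and 4 fell in mRNA, or 36.8% called, near the 35.7% of all genes. With IL-10 throughout against LPS 4 rose in mRNA and none fell, against 2.24% of all genes called, and the list median was 0.21, against -0.019 over all genes. The pre-mRNA of this list had 4 rising and 1 falling, against 6.70% of all genes called. Its pre-mRNA median had the opposite sign (-0.20, against 0.0015 over all genes). Il4ra, the IL-4 receptor chain upstream of STAT6, had 152757 and 127113 mRNA reads with IL-10 throughout, against 7485 and 11877 with LPS. It stood many times over the LPS libraries and rose by 3.89 (adjusted p = 0.00495), a call kept on leaving out any 1 library. Il6ra, the IL-6 receptor chain, had 3395 and 3986, against 1087 and 1072, and rose by 1.77 (adjusted p = 0.00639). With LPS against untreated cells, a comparison with the same LPS libraries, Il6ra mRNA fell by 2.48 on the log2 scale. The Il6ra rise was lost without LPS library B (1.76, adjusted p = 0.0618) or IL-10 throughout library B (1.65, adjusted p = 0.0606). In pre-mRNA Il4ra was 39660 and 33596 with late IL-10, against 5272 and 4083 with LPS, and rose by 2.98 (adjusted p = 0.00645), a call lost without late IL-10 library A (0.0638) or B (0.0538).

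Of 13 listed STAT target genes, all in the table, 5 rose in mRNA with IL-10 throughout against LPS. Over all genes 2.24% were called (1.19% higher). The list was chosen with earlier results of these data known. Its counts and medians are therefore a description, and cannot show that STAT targets respond more than other genes. The list median was 1.89, against -0.019 over all genes. For the same comparison in pre-mRNA, 3 rose and 1 fell, against 6.70% of all genes called, with a list median of 1.35, against 0.0015. The gene that fell was Irf1 (-2.19, limma adjusted p = 0.00935). Bcl6, a transcriptional repressor, had 10680 and 9779 mRNA reads with IL-10 throughout, against 1533 and 1147 with LPS, and rose by 2.95 (adjusted p = 0.00436), kept on leaving out any 1 library. Sbno2 had 32946 and 36817, against 6770 and 7547, and rose by 2.28 (adjusted p = 0.00583), lost without IL-10 throughout library B (2.20, adjusted p = 0.0508). With late IL-10 against LPS limma called 0 of the 13 in mRNA and limma-voom 0. At an unadjusted p below 0.05, 8 of them lay higher, against 92 of all 11415 genes. The list median was 1.03, against -0.0067 over all genes. In pre-mRNA 5 rose with late IL-10, against 1.04% of all genes called (list median 1.82, against -0.048 over all genes). Dusp1, a phosphatase of MAP kinases, had 4455 and 4255 pre-mRNA reads with late IL-10, against 166 and 266 with LPS, and rose by 4.37. Nfil3, a basic leucine zipper factor, had 9398 and 8748, against 1076 and 749, and rose by 3.33. Both calls held on leaving out any 1 library.

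**Figure D4:**
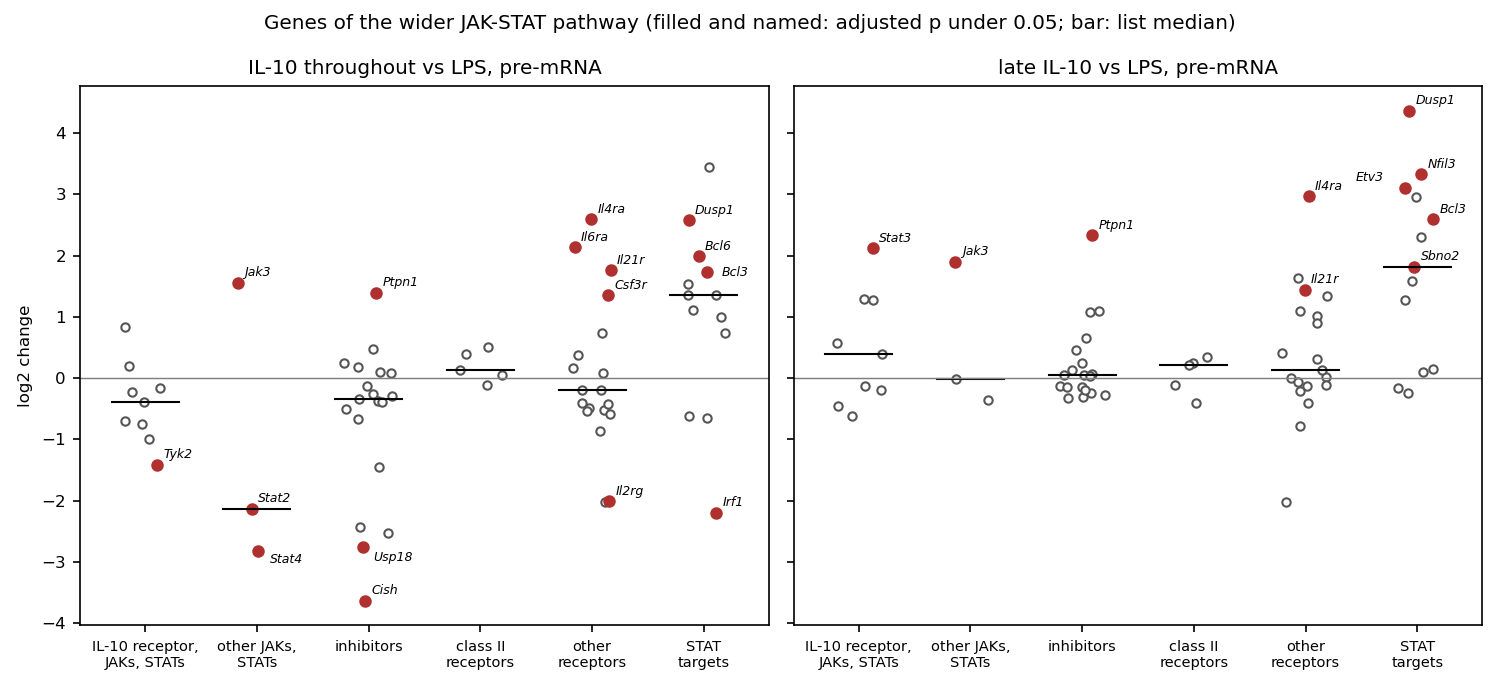
Pre-mRNA log2 changes (vertical axis) of the genes of 5 pathway lists and of the 9 genes described here, for IL-10 throughout against LPS and late IL-10 against LPS. Each point is a gene, filled and named where it passed an adjusted p of 0.05, and bars are list medians. With late IL-10, 5 of 13 STAT targets are filled, and with IL-10 throughout, Jak3 lies above 0 and Stat2 and Stat4 below it.

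Genes whose mRNA pattern was most like that of a member were found by Pearson's r of log2 values over the 8 libraries, among 9643 other genes with a mean of at least 100 normalized reads. The libraries share groups and size factors, so r is given as a description. For Stat3 they were Csf3r (r = 0.991), the G-CSF receptor, Gcnt2 (0.990) and Kif1a (0.986). For Jak2 they were Tmem243, Ak4 and Rfx5 (each 0.999), and for Tyk2 Asap1 (0.996), Ikbkb and Icam5 (each 0.988). For Stat5a they were Car13 (0.997), Aff1 and Atxn7l1 (each 0.996). The genes most like the receptor chains were Endod1 (0.991) for Il10ra and Tmem50b (0.987) for Il10rb.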

How the data were processed

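Total RNA was depleted of ribosomal RNA and made into directional libraries, per the labels' protocols. The authors deposited 1 table with a normalized signal for mature mRNA and pre-mRNA of each group. Per the submitters' processing notes, the tools included Trim Galore and DESeq, with genome build mm10. Not given in the sources used here are the aligner, the read counter, the annotation and the rule that assigned reads to pre-mRNA, and exonic reads of unspliced transcripts may be counted in either measure. The deposited signal values are whole multiples of 2 constants per column, so both libraries' reads were worked out by lattice reduction. All p-values rest on this step. More than 1 choice of constants fitted, and the one whose recomputed size factors best matched the deposited scaling was taken. The match is thus the rule of choice and not a later check. It held within 1e-10 on the log2 scale, and the next best choice was off by 0.0792 in mRNA and 0.0252 in pre-mRNA. With the chosen constants, 100% of values had exactly 1 solution.

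Values were taken as log2(normalized reads + 1) and entered into limma-trend (limma 3.58.1, R 4.3.3) with 8 libraries per measure, group as the only term, genes with a mean of at least 1 (11415 for mRNA, 11131 for pre-mRNA). P-values were adjusted by Benjamini and Hochberg over all genes tested, with a threshold of 0.05, and intervals are at 95%. Pre-mRNA and mRNA changes were compared in 1 limma fit of both measures. The fits were tested on simulated data. Alternatives were pseudocounts of 0.5 and 4, a minimum mean of 10 and no filter, TMM scaling, scaling to total reads, limma-voom and leaving out each library. Every gene of the table has at least 11 reads in each LPS mRNA library, so genes below that are outside it. A total of 0 columns belonged to samples outside the labels.

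The members and lists were chosen with earlier results of these data known. Besides the members and Jak3, Stat2 and Stat4, the text draws on up to 3 genes of each list per comparison and measure with the smallest adjusted p past the threshold, and the 3 genes most like each member. Socs3 with IL-10 was named outside this rule, after its values were seen. Some listed results are not reported here. Sequences come from RefSeq promoters (GRCm38.p6) and from GENCODE M21 on mm10.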

Additional observations from a re-analysis of the deposited data

Results flagged for a closer look

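Both flagged results concern Stat3, and both are differences between the effects of IL-10 throughout and of late IL-10. Stat3 mRNA stood 1.37 higher on the log2 scale in the group given IL-10 throughout, in a direct limma contrast of the IL-10 groups (adjusted p = 0.0433). The change of Stat3 pre-mRNA minus that of its mRNA, for IL-10 throughout against late IL-10, was -2.65 (adjusted p = 0.0129). On leaving out any 1 library, the mRNA difference lay between 1.18 and 1.56 and the difference between measures between -2.84 and -2.46. As given above, neither call held throughout those fits. Groups of 2 libraries are too small to tell which library, if any, is an outlier.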

How the results depend on the processing

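No paired analysis was possible because the columns carry no replicate numbers. A fit without a library leaves its group with 1, which is assumed to vary like the other groups. Over all alternatives, single-gene changes of the members kept direction and call in 969 results, lost the call in 37, gained one in 12 and turned direction in 62, and differences between measures did so in 643, 6, 2 and 33. No change of direction concerned a value called as reported. Most of the 72 changes behind these counts were not called as reported. Of the 36 differences between measures, only that of Stat3 between the IL-10 groups was called. Results that kept direction and call are thus mostly uncalled ones that stayed uncalled, and only a called result can lose its call. For other pathway genes, alternatives chosen after seeing the data kept 793 results and ended 167 calls. The causes were not tested.

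Scaling to total reads moved the median change of all genes to -0.74 in mRNA and -0.91 in pre-mRNA for LPS against untreated, to 0.25 and 0.46 for IL-10 throughout against LPS and to 0.26 and 0.43 for IL-10 throughout against late IL-10. The share of calls that rose became 21.1% (53.8% as reported) for LPS mRNA and 20.9% (50.7%) for LPS pre-mRNA. For IL-10 throughout against LPS it became 63.3% (53.1%) and 52.9% (36.5%), and for IL-10 throughout against late IL-10 pre-mRNA 40.9% (25.5%). Changes then turned direction in mRNA for LPS against untreated (Il10ra -0.054, Jak1 -0.19, Stat3 -0.27, Stat5b -0.38), IL-10 throughout against LPS (Il10rb 0.19, Jak2 0.035, Stat5b 0.16, Stat6 0.13) and IL-10 throughout against late IL-10 (Il10rb 0.17, Stat5a 0.25, Stat5b 0.10, Stat6 0.15). They turned in pre-mRNA for LPS against untreated (Il10ra -0.53, Il10rb -0.53, Jak1 -0.13, Stat5b -0.69), IL-10 throughout against LPS (Il10rb 0.24, Jak1 0.30, Stat5b 0.067) and IL-10 throughout against late IL-10 (Il10rb 0.35), and for the Il10rb difference between measures, IL-10 throughout against LPS (0.047). That scaling called 3 genes in mRNA for late IL-10 against LPS. It called 3 members in pre-mRNA for LPS against untreated, 2 for IL-10 throughout against LPS, 2 for late IL-10 against LPS and 1 for IL-10 throughout against late IL-10. A pseudocount of 4 and TMM scaling also called 1 there. With no filter, pre-mRNA calls came to 307 for IL-10 throughout against LPS, 65 for late IL-10 against LPS, with 0 members, and 26 for IL-10 throughout against late IL-10.

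On leaving out 1 library, genes called in mRNA ranged from 1860 to 3823 for LPS against untreated, 43 to 192 for IL-10 throughout against LPS (43 without LPS library B) and 1 to 105 for IL-10 throughout against late IL-10. In pre-mRNA they ranged from 3150 to 4843, 62 to 1158 and 1 to 604, and from 29 to 87 for late IL-10 against LPS. Members called ranged from 0 to 1 in mRNA for IL-10 throughout against LPS and were 0 in every such fit against late IL-10. In pre-mRNA they ranged from 3 to 6 for LPS, 0 to 1 for IL-10 throughout or late IL-10 against LPS, and 0 to 2 between the IL-10 groups. Uncalled changes crossed 0 in mRNA for LPS against untreated (Il10rb -0.30 to 0.25, Stat5b -0.0069 to 0.74), IL-10 throughout against LPS (Il10rb -0.35 to 0.21, Jak2 -0.86 to 0.40, Stat5a -0.57 to 0.91, Stat5b -0.47 to 0.27), late IL-10 against LPS (Il10ra -0.26 to 0.22, Il10rb -0.32 to 0.39, Jak1 -0.33 to 0.39, Jak2 -0.54 to 0.64, Stat5a -0.54 to 0.94, Stat5b -0.36 to 0.51, Stat6 -0.11 to 0.085) and IL-10 throughout against late IL-10 (Il10rb -0.46 to 0.25, Jak2 -0.90 to 0.35, Stat5a -0.77 to 0.71, Stat5b -0.61 to 0.26). They crossed 0 in pre-mRNA for LPS against untreated (Stat5b -0.41 to 0.87), IL-10 throughout against LPS (Jak1 -0.63 to 0.30, Stat5b -1.03 to 0.24), late IL-10 against LPS (Il10rb -0.34 to 0.072, Jak2 -0.13 to 0.90, Stat5b -0.069 to 1.21) and IL-10 throughout against late IL-10 (Il10rb -0.22 to 0.046). Differences between measures crossed 0 for LPS against untreated (Jak1 -0.24 to 0.69, Jak2 -0.067 to 1.00, Stat5a -0.90 to 0.57, Stat5b -0.78 to 0.50), IL-10 throughout against LPS (Il10ra -0.14 to 0.34, Il10rb -0.43 to 0.13, Stat5b -0.93 to 0.34), late IL-10 against LPS (Il10ra -0.42 to 0.059, Il10rb -0.52 to 0.18, Jak2 -0.25 to 0.93, Stat5b -0.14 to 1.14) and IL-10 throughout against late IL-10 (Il10rb -0.33 to 0.37).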

Other observations

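Levels of Il10ra mRNA were 9663 and 8374 normalized reads with IL-10 throughout and 10889 and 8545 in untreated cells, which overlap, and no test was made between these groups. Jak1 mRNA was 29972 and 18319 with IL-10 throughout and 9432 and 9688 in untreated cells, which do not. In the list of inhibitors Pias3, which encodes an inhibitor of STAT3 DNA binding, fell with LPS against untreated cells by 1.40 on the log2 scale in mRNA (limma adjusted p = 0.00252). Its pre-mRNA fell by 2.13 (adjusted p = 0.00178), and both values were chosen after they were seen.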
